A study of Homo sapiens with 2 samples.

Results

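The genes described here encode DNA repair enzymes and the checkpoint proteins that signal DNA damage. A list of 57 such genes was taken by name, with earlier results of these data known, from homologous recombination, the Fanconi anaemia pathway, break end processing, end joining, mismatch repair, excision repair and the ATM and ATR checkpoints. Of the 57, 31 had a probe set (the array's unit for 1 transcript) with their name, out of 14884 genes named on the array. For each gene the probe set with the highest mean of both arrays was used. One gene, RAD51B, had a mean level below the median over all probe sets (3.70 on the log2 scale) and was set aside with values of 3.56 and 3.74, which left 30 measured members among 10258 measured named genes. The other 26 were not analysed here, since no named probe set stood for them: BRCA1, BRCA2, RAD51D, FANCA, FANCB, FANCC, FANCD2, FANCE, FANCF, FANCG, FANCI, FANCL, FANCM, BLM, WRN, RMI1, RBBP8, ATM, POLQ, POLH, ERCC1, ERCC2, ERCC6L, LIG3, LIG4 and PRKDC. The Fanconi group was thus read through BRIP1 alone, and nucleotide excision repair and the specialised polymerases through no member.

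Both arrays hold RNA of HT1080, an established human fibrosarcoma line with an activated NRAS allele and, as generally described, wild-type p53. The control group is HT1080 given a non-target control shRNA, and the other group is HT1080 given a cMyc shRNA, which directs destruction of the MYC messenger RNA. The labels name 1 sample for each group. They speak of viral infection in one place and of transfection in another, and of collection 48 hours later. No other treatment is given for either. MYC itself read 7.09 in control cells and 6.16 in cMyc shRNA cells, so the targeted messenger was 1.91-fold lower and not absent. The mesenchymal markers were mixed: FN1 read 12.4 and 12.6, SNAI2 11.4 on both arrays and VIM 9.94 and 9.34, whereas THY1 (4.50 and 4.86) and TWIST1 (4.31 and 4.28) read close to the level filter and S100A4 (3.06 and 3.39) below it. The epithelial marker EPCAM (2.73 and 3.07) and the endothelial marker PECAM1 (2.82 and 2.99) lay below the filter. Other markers of these lists did not, with KRT18 at 9.09 and 8.41, CLDN3 at 6.09 and 5.92, the macrophage marker CD68 at 10.4 and 11.3 and the muscle gene TTN at 6.50 and 7.40. Of the marker lists, 7 of 15 mesenchymal genes were measured (median difference 0.064), 5 of 14 epithelial (-0.46), 3 of 14 blood (0.036) and 3 of 11 endothelial and muscle genes, of which DES differed by 1.23. Their part in the repair values was not tested. Collagen markers of fibroblasts and the blood marker PTPRC were not analysed here.

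A dividing cell repairs a broken chromosome by one of several routes. Homologous recombination copies the intact sister chromatid after replication, with the ends first trimmed by nucleases, whereas non-homologous end joining ligates the ends directly in any phase. ATM and ATR kinases sense breaks and stalled forks and act through CHEK2 and CHEK1 to hold the cell cycle. Many recombination genes are switched on by E2F factors as cells enter S phase, and MYC promotes that entry.

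Each group has 1 array, so replicate spread is unknown, no test is possible, and every value describes these arrays only. A difference is the log2 value with cMyc shRNA minus that with control shRNA, so that -1 stands for a level 2-fold lower; base 2 was inferred from the range of the values, and all folds rest on it. The only measure of error is technical: the SD of 1 probe set's difference was 0.34, from 416 genes read by more than one measured probe set. For a gap between the differences of 2 genes this gives 0.48. In 43 of the 416 genes the probe sets hold identical values; over the 337 genes whose probe sets lie at least 0.1 apart in level, the SDs are 0.37 and 0.52. These estimates leave out the variation between cultures.

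Of the 30 measured members, 8 read at least 2-fold lower with cMyc shRNA, and 0 members passed the same bound upward. The same rule took 4.0% of all measured named genes as lower and 2.01% as higher. The members' differences had quartiles of -1.0 and 0.0044 and a median of -0.44, against a median of -0.012 for all measured named genes. Below 0 lay 22 members, where 51.3% of all genes did. A total of 18 members were lower by more than the technical SD (23.4% of all genes) and 1, MSH3, was higher by more than it (20.1% of all genes). The remaining 11 lay closer to 0 than this SD. The lower members came from recombination, resection, the Fanconi group and base excision, and the checkpoint, end joining and mismatch members stayed within 2-fold. For the 7, 3 and 3 genes measured in those last groups, 0 past the rule is near the shares of all genes. Just past the 2-fold rule were BRIP1 (-1.04) and UNG (-1.01), and just short of it XRCC3 (-0.98) and RAD51C (-0.92). By a stricter rule, beyond 3 robust SDs of the 500 genes nearest in level, 5 members were lower: EXO1, RAD54L, NEIL3, RAD51AP1 and XRCC2. That rule took 1.84% of all measured named genes as lower.

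**Figure D1:**
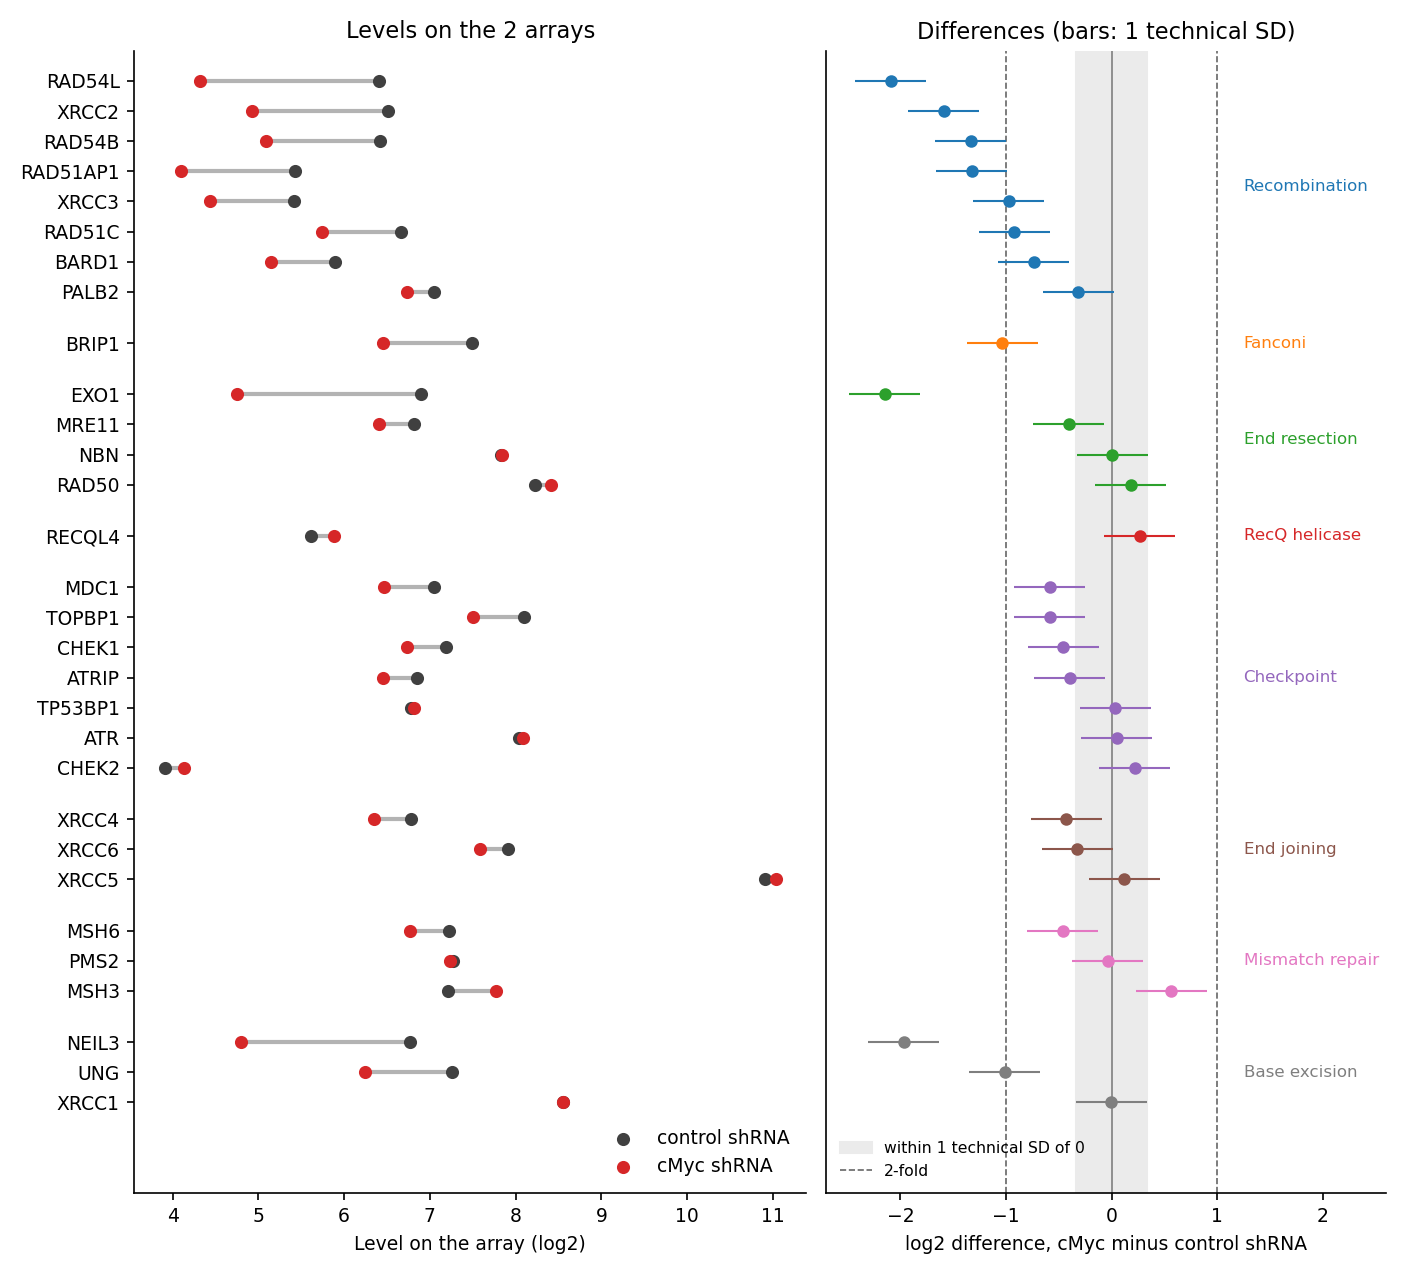
The left panel plots the log2 level of each of the 30 measured members on the control shRNA array (dark) and the cMyc shRNA array (red), grouped by role. The right panel plots the log2 difference with bars of 1 technical SD (0.34), a grey band of that width around 0 and dashed lines at 2-fold. All 8 recombination members lie below 0, while the checkpoint members lie between -0.59 and 0.22.

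All 8 measured recombination genes, of 12 listed, had negative differences, where 51.3% of all measured named genes lay below 0. RAD51B, set aside by the level filter, had a difference of 0.19. Of the 8, 4 passed the 2-fold rule as lower, against 4.0% of all measured named genes. XRCC3, RAD51C and BARD1 fell short of it, and PALB2 lay within the technical SD of 0. The median of the 8 was -1.15, which is 2.22-fold lower. The RAD54 motor proteins act on DNA during strand exchange. RAD54L read 6.41 in control cells and 4.31 in cMyc shRNA cells, which is 4.26-fold lower. Among its 500 level neighbours (the genes of most similar mean level) 0 showed a lower difference. RAD54B, its homologue, read 6.42 and 5.09, or 2.52-fold lower. The gap of 0.76 between the RAD54 genes exceeded the technical SD of a gap.

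RAD51AP1, which stimulates joint formation between DNA molecules, read 5.43 and 4.10 (2.5-fold lower). Among its 500 level neighbours, 2 showed a lower difference. XRCC2, XRCC3 and RAD51C work together in complexes that assist strand exchange. XRCC2 read 6.52 and 4.93, or 3.01-fold lower. XRCC3 read 5.42 and 4.44 (1.97-fold lower). RAD51C, which partners XRCC3 and is also part of the complex that holds XRCC2, read 6.66 and 5.74 (1.90-fold lower). The differences of RAD51C and XRCC3 lay 0.052 apart, far within the technical SD of a gap, and XRCC2 lay 0.66 below RAD51C.

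Among proteins that bind BRCA1, values differed. BARD1, the obligate partner of BRCA1 in its ubiquitin ligase, read 5.89 and 5.15, a difference of -0.74 (1.67-fold lower). PALB2, which bridges BRCA1 and BRCA2, read 7.05 and 6.74, and its difference of -0.32 was smaller than the technical SD. Thus within recombination the RAD54 motors, XRCC2 and RAD51AP1 stood lowest and PALB2 nearest to 0.

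BRIP1, the helicase also known as FANCJ, which binds BRCA1, read 7.49 and 6.45, or 2.05-fold lower. Among its 500 level neighbours, 24 showed a lower difference.

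End processing was uneven. EXO1, the nuclease of long-range resection that also works in mismatch repair, had the lowest difference of all members: it read 6.90 and 4.75, or 4.43-fold lower. It ranked 39 from the lowest among all 10258 measured genes. MRE11, RAD50 and NBN form the complex that binds broken ends, and there MRE11 read 6.82 and 6.41 (-0.41). RAD50 read 8.22 and 8.41 (0.18). NBN read 7.83 and 7.84 (0.0072). RAD50 and NBN were within the technical SD of 0, and the gap of 0.59 between RAD50 and MRE11 was a little above the technical SD of a gap. EXO1 lay 1.74 below MRE11.

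Base excision genes were uneven too. The glycosylases remove damaged bases: NEIL3, which acts on oxidised bases and on crosslinks at forks, read 6.77 and 4.80 (3.91-fold lower). UNG, which removes uracil from DNA, read 7.26 and 6.25 (2.02-fold lower). XRCC1, the scaffold for single-strand break repair, read 8.56 and 8.55. The difference of XRCC1 was -0.0039, and NEIL3 lay 1.96 below it. UNG and NEIL3 were therefore past the 2-fold rule and XRCC1 level on both arrays. Among the 500 level neighbours of each, 3 showed a lower difference than NEIL3 and 34 a lower one than UNG.

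For the lower members the RefSeq promoter was examined for short motifs that factors of growth and cell cycle control are known to bind. The window was the 250 bases before the gene's start in build GRCh38.p14, found for 26 of the 30 measured members. Searched on both strands were the E2F core in its forms TTCCCGC and TTGGCGC, the cell cycle genes homology region (CHR) TTTGAA, the CCAAT box bound by NF-Y, the GC box GGGCGG of SP1 and the MYC E-box CACGTG. A GC box can share bases with an E2F core, as it does in RAD51AP1, where the letters start at positions -23 and -21 from the gene's start. Shown are the 5 members past the 2-fold rule whose windows hold E2F or CHR letters and no other annotated gene, printed in the direction of the gene: RAD54L at chr1:46247438-46247687 (plus strand), RAD51AP1 at chr12:4538640-4538889 (plus strand), NEIL3 at chr4:177309624-177309873 (plus strand), BRIP1 at chr17:61863529-61863778 (minus strand) and UNG at chr12:109097347-109097596 (plus strand). Capitals mark E2F, CHR and CCAAT letters on either strand.
RAD54L: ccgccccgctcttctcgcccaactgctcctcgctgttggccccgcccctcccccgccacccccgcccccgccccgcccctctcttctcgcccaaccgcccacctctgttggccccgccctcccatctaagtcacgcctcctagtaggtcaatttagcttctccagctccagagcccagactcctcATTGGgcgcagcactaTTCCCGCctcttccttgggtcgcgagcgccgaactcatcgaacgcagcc
RAD51AP1: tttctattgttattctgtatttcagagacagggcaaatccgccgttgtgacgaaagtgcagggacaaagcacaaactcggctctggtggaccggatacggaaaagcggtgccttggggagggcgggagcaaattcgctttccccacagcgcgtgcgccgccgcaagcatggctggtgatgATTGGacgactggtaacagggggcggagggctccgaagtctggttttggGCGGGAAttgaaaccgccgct
NEIL3: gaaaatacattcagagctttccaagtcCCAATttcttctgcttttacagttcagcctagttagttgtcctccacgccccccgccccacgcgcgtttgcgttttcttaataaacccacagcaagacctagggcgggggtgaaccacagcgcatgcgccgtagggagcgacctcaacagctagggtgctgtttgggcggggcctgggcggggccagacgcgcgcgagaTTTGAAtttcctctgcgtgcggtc
BRIP1: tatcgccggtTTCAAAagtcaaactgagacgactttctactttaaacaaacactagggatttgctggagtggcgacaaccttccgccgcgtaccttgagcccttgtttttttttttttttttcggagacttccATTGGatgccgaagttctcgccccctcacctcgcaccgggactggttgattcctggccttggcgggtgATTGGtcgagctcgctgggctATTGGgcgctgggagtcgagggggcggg
UNG: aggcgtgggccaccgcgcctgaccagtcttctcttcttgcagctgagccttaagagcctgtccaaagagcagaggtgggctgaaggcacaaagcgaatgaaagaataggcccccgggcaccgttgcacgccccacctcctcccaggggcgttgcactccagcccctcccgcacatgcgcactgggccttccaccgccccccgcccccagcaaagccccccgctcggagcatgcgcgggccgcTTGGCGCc

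In RAD54L an E2F core starts at -49 and a reversed CCAAT box at -65. In RAD51AP1 a reversed E2F core starts at -21, next to the start, and a reversed CCAAT box at -70. NEIL3 has the CHR letters at -24 and a CCAAT box at -223, and UNG has an E2F core at -8. BRIP1 has reversed CHR letters at -240 and reversed CCAAT boxes at -117, -49 and -28. Over the 26 members, 7 windows (26.9%) held an E2F core, against 7.95% of all 27305 promoters and 12.3% of those of 7900 measured genes. They were 3 of the 7 members past the 2-fold rule that had a window and 4 of the other 19, namely TOPBP1, MDC1, MSH3 and XRCC1. RAD54B, also past the rule, had no window. CCAAT letters stood in 16 windows (61.5%; 33.0% of all promoters and 34.6% of those of measured genes) and GC boxes in 23 (88.5%; 42.3% and 65.6%). CHR letters stood in 4 windows (15.4%; 13.6% and 8.49%). By the same split, CCAAT letters stood in 4 of the 7 and 12 of the 19, GC boxes in 7 and 16, and CHR letters in 2 and 2. The E-box letters stood in 0 of the 26 windows, against 6.49% and 8.61%. EXO1 and XRCC2 had GC box letters and none of the other motifs in this window. These are matches of letters in the reference and not measured binding. E2F letters were found in members past the 2-fold rule and in 4 within it. Of these 4, TOPBP1 (-0.58) and MDC1 (-0.59) were lower by more than the technical SD, MSH3 (0.56) higher and XRCC1 (-0.0039) level.

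**Figure D2:**
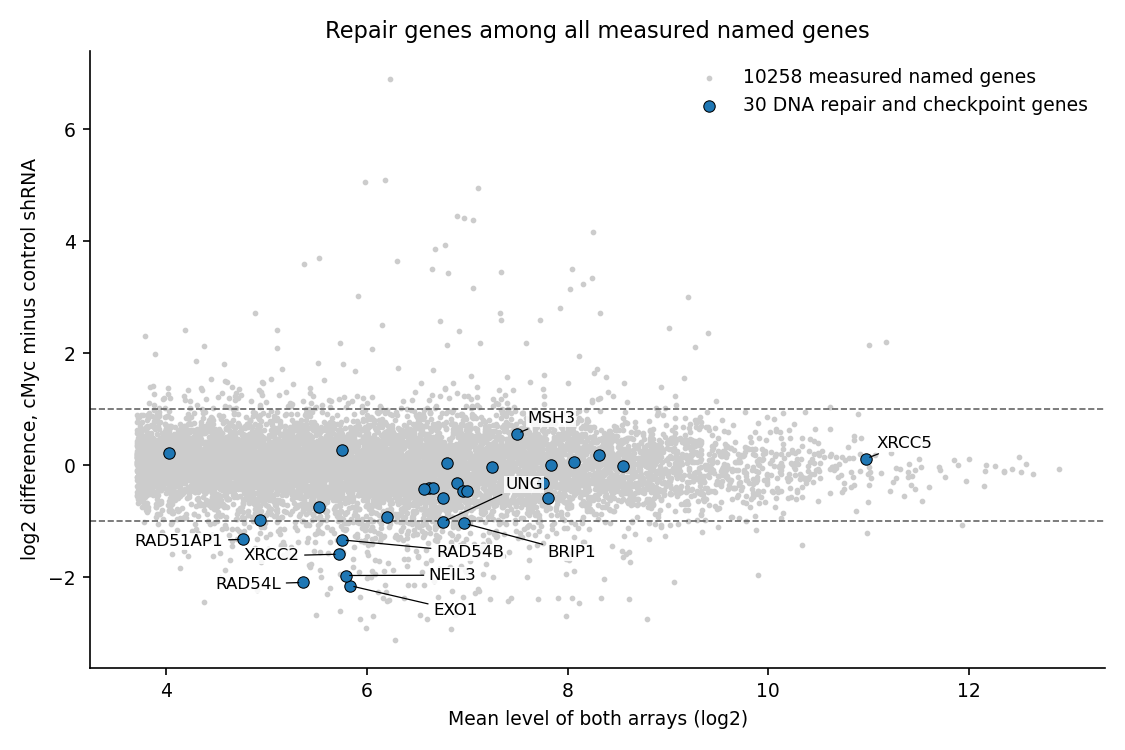
Each point is a gene, with the mean log2 level of both arrays on the horizontal axis and the log2 difference on the vertical axis; grey points are the 10258 measured named genes, blue points the 30 repair and checkpoint genes, and dashed lines mark 2-fold. EXO1, RAD54L and NEIL3 lie near -2 at the lower edge of the cloud, and no blue point lies above the upper line.

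Of the checkpoint genes, 0 of the 7 measured (8 listed) passed the 2-fold rule. Of all measured named genes 4.0% passed it as lower and 2.01% as higher, so 0 of 7 is near those shares. In 4 the difference was below 0 and in 3 above it, and the median was -0.40. ATR, the kinase of stalled forks, read 8.04 and 8.09, a difference of 0.05. Its partner ATRIP read 6.85 and 6.46 (-0.40). TOPBP1, which activates ATR, read 8.09 and 7.51 (-0.58). CHEK1, the effector kinase of ATR, read 7.19 and 6.73 (-0.46). The ATR partners and effector were thus each lower by more than 1 technical SD, as were 23.4% of all measured named genes, and ATR was not. After quantile normalization ATRIP (-0.33) lay within the technical SD of 0. The gap between ATR and CHEK1, 0.51, lay between both estimates of the technical SD of a gap (0.48 and 0.52), and that between ATR and ATRIP, 0.45, was below both.

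On the ATM side, CHEK2, the effector kinase, read 3.91 and 4.13 on its brighter probe set, close to the level filter, a difference of 0.22. Its other probe set lay below the filter and had -0.42, so CHEK2 has no settled direction here. MDC1, which holds repair proteins on marked chromatin, read 7.05 and 6.47 on the brightest of its 8 probe sets (-0.59). Those 8 probe sets gave 6 distinct pairs of values, with differences from -0.59 to -0.34 and a median of -0.41. All were negative, and the probe set used by the rule was the lowest. TP53BP1, which shields ends from resection, read 6.78 and 6.81, a difference of 0.037. BARD1 lay 0.77 below TP53BP1.

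Of the end joining genes, 0 of the 3 measured (5 listed) passed the 2-fold rule, and their median was -0.32. With 3 genes, 0 is near the shares of all measured named genes (4.0% lower and 2.01% higher). XRCC5 and XRCC6 encode the large and small subunits of Ku, which binds broken ends. XRCC5, the large subunit, read 10.9 and 11.0 (0.12). XRCC6 read 7.91 and 7.59 (-0.32). XRCC4, the partner of the end joining ligase, read 6.78 and 6.35 (-0.43), the only one of these 3 beyond the technical SD. The gap between the Ku subunits, 0.44, was within the technical SD of a gap.

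Mismatch repair held the only member higher by more than the technical SD. MSH3 recognises larger loops and MSH6 single mismatches. MSH3 read 7.21 and 7.78, or 1.48-fold higher. MSH6 read 7.23 and 6.77, or 1.38-fold lower. Their gap of 1.02 was more than the technical SD of a gap, although neither passed 2-fold. PMS2, the endonuclease subunit, read 7.27 and 7.23 (-0.037). RECQL4, a RecQ helicase with a part in replication initiation, read 5.61 and 5.88 (0.27), within the technical SD.

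Other genes of DNA repair and damage signalling, from a separate list of 181, included 108 measured genes. The 2-fold rule took 18 of these (16.7%) as lower and 0 as higher, and their median was -0.17. Of all measured named genes the rule took 4.0% as lower and 2.01% as higher. Lowest were FIGNL1 (-1.99), an ATPase of recombination, RAD23B (-1.72), which works with XPC in lesion recognition, and UBE2T (-1.61), the conjugating enzyme of the Fanconi pathway. Highest were SWSAP1 (0.88), a recombination factor, RAD17 (0.88), the loader of the checkpoint clamp, and APLF (0.87), an end joining factor. The genes outside the 57 were thus spread on both sides of 0, with those past 2-fold all on the lower side.

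Genes described as direct targets of p53, the transcription factor that responds to the checkpoint kinases, lay on both sides of 0. Of 30 listed, 18 were measured, and their median was 0.096. The 2-fold rule took 1 as higher and 0 as lower, which for 18 genes is near the 2.01% and 4.0% of all measured named genes. TP53INP1 (1.18) and BBC3 (0.96), a promoter of apoptosis, were highest, and EDA2R (-0.55) and PLK2 (-0.45) lowest. CDKN1A and MDM2 were not analysed here. RRM2B and POLK are in both of these lists.

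**Figure D3:**
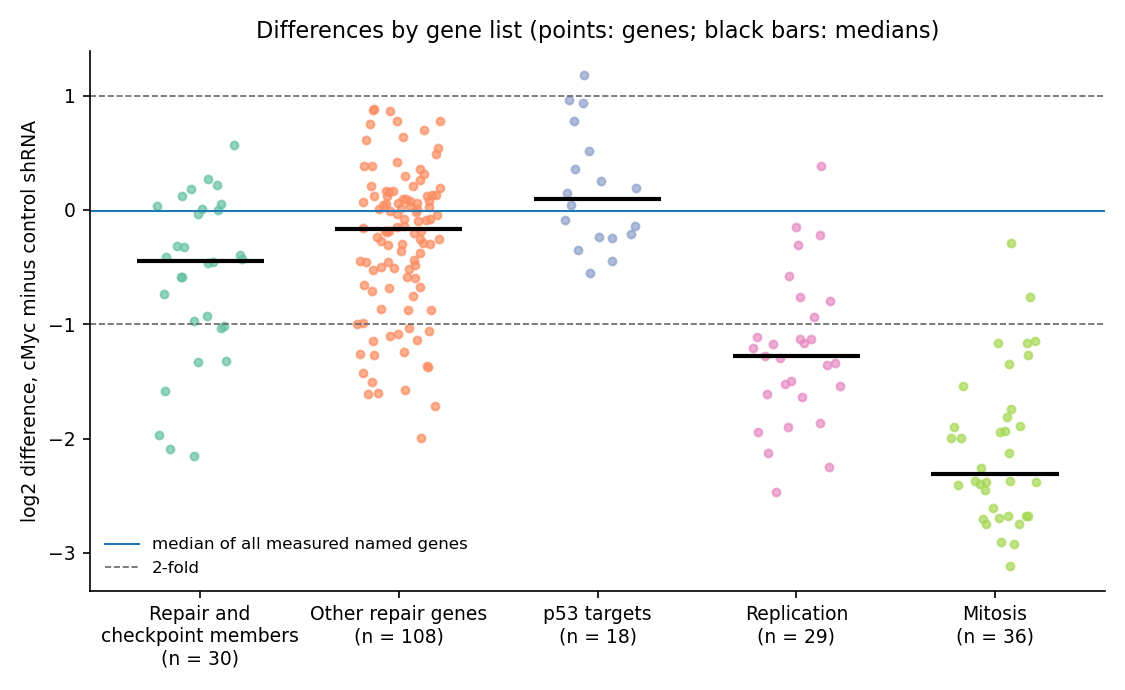
Each point is the log2 difference of 1 measured gene, in columns for the 30 repair and checkpoint members, 108 other repair genes, 18 p53 targets, 29 replication genes and 36 mitotic genes; black bars are medians, the blue line is the median of all measured named genes (-0.012) and dashed lines mark 2-fold. The members' median of -0.44 lies between those of the p53 targets and the replication genes.

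The lists of proliferation genes had larger differences than those of repair genes on these arrays, with no test of the contrast. The list of other repair genes shares 0 genes with the replication and mitotic lists. It holds genes of the fork and cell cycle such as CLSPN, TIMELESS and CDC25B, so the contrast depends on how genes were assigned to lists. Of 29 measured genes of origin licensing and the replication fork 21 (72.4%) passed the rule as lower (median -1.28), and of 36 mitotic genes 34 (94.4%) did (median -2.31). For the recombination members the share was 50% and for all repair and checkpoint members 26.7%, against 4.0% of all measured named genes. The median of the 8 recombination members, -1.15, was thus near that of replication. Recombination genes of the other repair list lay on both sides of 0, from FIGNL1 (-1.99) to SWSAP1 (0.88). The checkpoint and end joining medians lay nearer to 0 than that of the replication or the mitotic list. Interferon-stimulated genes were higher on the same array, where 26 of 28 measured ones passed 2-fold (2.01% of all measured named genes did) and the median was 3.26. The part of either list in the repair values was not tested. In such bulk RNA, fewer cells in S and G2 phase and less repair messenger in each cell cannot be told apart.

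Scaling had little effect on single members. Centring, quantile normalization, loess on level and the mean over probe sets moved the 30 differences by at most 0.32. The largest move was that of CHEK2, whose value turned to -0.098 with the mean over its probe sets. The mean level of its probe sets lay below the level filter, which left 29 measured members in this setting. BRIP1 and UNG fell short of 2-fold after quantile normalization, and after loess UNG fell short and XRCC3 passed.

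**Figure D4:**
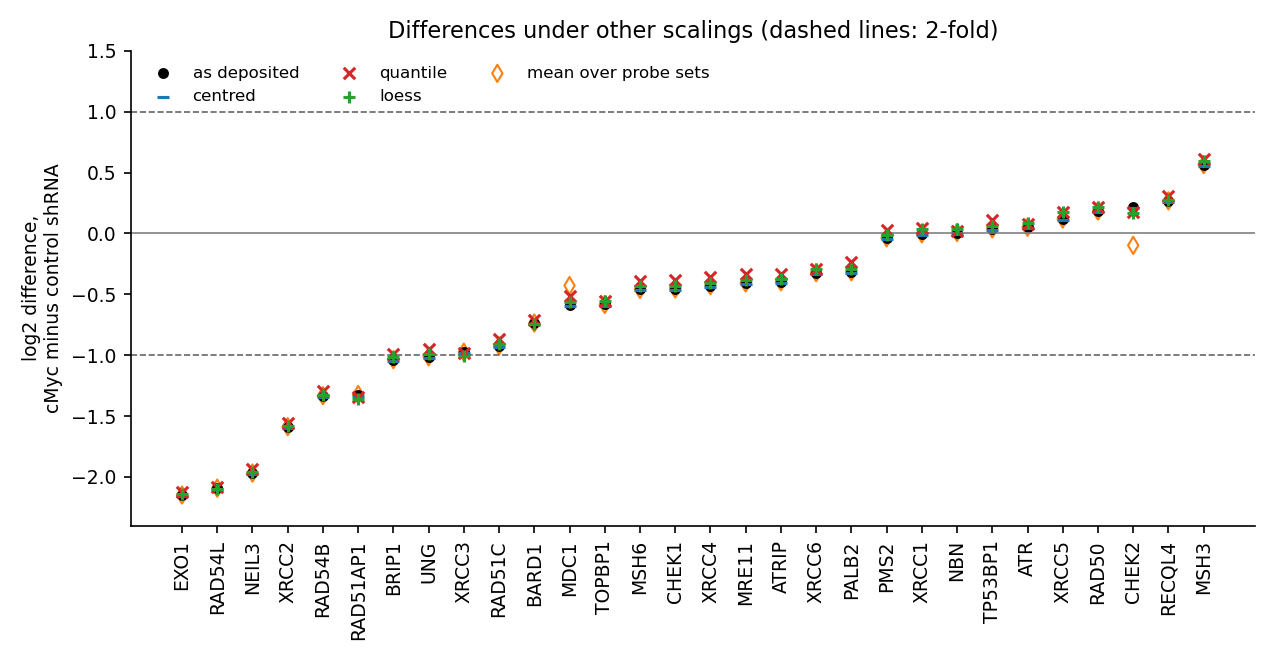
The log2 difference of each of the 30 measured members, in order, as deposited (black) and after centring, quantile normalization, loess and averaging of probe sets; dashed lines mark 2-fold. The settings nearly overlie each other except for CHEK2 and MDC1, the members with several probe sets, and BRIP1, UNG and XRCC3 sit at the lower dashed line.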

How the data were processed

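HT1080 RNA was read on 2 Affymetrix Human Gene 2.0 ST arrays, 1 for each shRNA. The deposited values were read as log2 levels of 53617 probe sets, from 1.41 to 13.9, with medians of 3.68 (control) and 3.73; the base was inferred from the range. Affymetrix Expression Console was used, per the submitters' processing notes. The version, the background correction and the normalization were not given in the sources used here. Neither detection calls nor scanner intensities were used. The number of arrays, 1 for each group, limits the precision.

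Probe sets were named through the GEO platform annotation (16098 probe sets with 1 symbol, 0 with several, 37519 unnamed here). Members were matched by symbol, and the 26 without a match were also sought by Entrez identifier, which found 0. The probe set with the highest mean stood for a gene; genes with a mean of at least 3.70 counted as measured. No model was fitted and no p-value computed. A change in level was counted by the 2-fold rule, and all measured genes served as background. The technical SD is the root mean square gap between the 2 brightest probe sets of a gene, divided by the square root of 2; it counts 43 genes whose probe sets hold identical values. The members, lists and motifs were chosen with earlier results of these data known. All measured members were named, with the 3 farthest other repair genes and the 2 farthest p53 targets on each side; other genes are marked as chosen after their values were seen, apart from MYC and the cell markers. Promoters are RefSeq's, 1 for each symbol. The counting was tested on simulated data. Python 3.11.15, numpy 2.4.6, pandas 2.3.3, scipy 1.17.1, statsmodels 0.14.6 and matplotlib 3.10.9 were used.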

Additional observations from a re-analysis of the deposited data

How the results depend on the processing

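The alternatives were fixed together with the lists. As deposited, 8 members were at least 2-fold lower. This count was 8 after centring, after loess and with the mean over probe sets. After loess it held XRCC3 in place of UNG. With the mean over probe sets 29 members were measured, since CHEK2 fell below the level filter. The count was 6 after quantile normalization. It was also 6 when only genes above the 75th percentile of level were kept, which leaves out RAD51AP1 and RAD54L by construction. It was 12 at 1.5-fold (11.9% of all genes lower) and 5 beyond 3 local robust SDs (1.84% of all genes lower), the latter a stricter rule by construction. No setting counted any member as higher. The members' median ran from -0.45 to -0.37 over these settings, and their mean was -0.59. All 120 values of single members under other scalings and probe set rules lay within 0.34 of the value as deposited. Much of this was fixed in advance. Centring moves every member by the same 0.0084, and the mean over probe sets can move only CHEK2 and MDC1. The share of all genes at least 2-fold lower ran from 2.83% with no level filter to 5.17% at the 75th percentile. No paired analysis was possible because each group has 1 array, and no array could be left out. CHEK2, RAD51AP1, RAD54L and XRCC3 read closest to the level filter with cMyc shRNA, and no detection calls were used.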

Other observations

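Apart from the member XRCC1, the genes in these observations were chosen after their values were seen, from the list of other repair genes. USP1, the enzyme that removes ubiquitin from FANCD2, read 8.21 with control shRNA and 7.10 with cMyc shRNA (-1.11), while WDR48, its activating partner, read 7.38 and 8.16 (0.78), a gap of 1.88. RAD17, which loads the checkpoint clamp, read 7.38 and 8.26 (0.88), and of the clamp's subunits RAD1 read 7.16 and 6.40 (-0.75), RAD9A differed by -0.043 and HUS1 by 0.036.

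In single-strand break repair, PARP1, the sensor, read 8.42 and 7.27 (2.21-fold lower) and PARP2 had a difference of -0.68, while their scaffold XRCC1 was level on both arrays. CLSPN, the adaptor that brings CHEK1 to ATR, read 7.34 and 5.83 (2.84-fold lower), and of the CDC25 phosphatases, which CHEK1 restrains, CDC25B (-1.09) and CDC25C (-1.06) passed the 2-fold rule and CDC25A (-0.87) did not. Other fork and checkpoint genes of the list varied, with -1.26 for TIMELESS, -0.88 for PAXIP1, -0.30 for TIPIN and -0.16 for ETAA1. None of these differences has a replicate check.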
